A study of Arabidopsis thaliana with 8 samples.

Results

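LINEs of the Arabidopsis thaliana genome were followed through the small RNAs (sRNAs) of endosperm in which RNA polymerase IV (Pol IV) was missing from one or both parents. The set held 1311 insertions of 27104 annotated transposable elements (TEs), chosen by family name: the ATLINE families, TA11 and TSCL. Endosperm was taken by hand 7 days after pollination from Ler mothers crossed to Col-0 fathers. In nrpd1-/- endosperm (3 libraries) both parents were homozygous for nrpd1a-4, a T-DNA allele of NRPD1, the gene of the largest Pol IV subunit. In mat nrpd1+/- endosperm (3 libraries) only the Ler mother was mutant, and in pat nrpd1+/- endosperm (2 libraries, replicates 2 and 3) only the Col-0 father was. Wild-type (WT) libraries belonged to another series, and only the authors' 24-nt WT means are set beside these values. The allele arose in Col-0 and had been backcrossed 4 times into Ler, so the mutant mother can carry Col-0 sequence around NRPD1 and elsewhere. The paper left genes inside such remaining Col-0 introgressions out when it examined allelic expression. Their positions were not mapped here. Each replicate pooled seeds from different parent plants, so p-values measure the spread between such pools.

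LINEs are retrotransposons without long terminal repeats. A full-length copy encodes a reverse transcriptase and moves through an RNA copy that is reverse transcribed at the insertion site, which leaves a run of A at the 3' end and often truncates the 5' end. Pol IV transcribes silent TEs into precursors that RDR2 makes double-stranded and DCL3 cuts mainly into 24-nt sRNAs, which guide DNA methylation. Endosperm is triploid, with a double dose of the maternal genome, and sRNAs of 21 and 22 nt can also come from Pol II transcripts.

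The insertions were mostly fragments. Their lengths ran from 10 to 14251 bp with a median of 324 bp; 847 were under 500 bp and 87 were 4000 bp or longer. ATLINE1A was the largest family (256 insertions), followed by ATLINEIII (163), TA11 (155), ATLINE1_3A (136), ATLINE2 (126), ATLINE1_6 (124), ATLINE1_4 (96), ATLINE1_5 (88), TSCL (69), ATLINE1_1 (58) and ATLINE1_2 (40). A run of 8 or more A within the last 30 bases marked 413 insertions (31.5%), with 47.8% of TSCL and 4.52% of TA11 insertions carrying one. A pseudogene overlapped 655 insertions, a protein-coding gene 54, and neither 612. Of the 1284 insertions long enough for a 24-base window, 945 had over 90% of such windows unique in the genome. The last 80 bases of 3 insertions with high or shifting sRNA levels show the terminal A run, here in capitals. They lie at chr3:12863950-12864029 (+ strand), chr2:7176646-7176725 (+) and chr3:16056821-16056900 (+) of TAIR10.1, and like all sequences here they were read from the RefSeq genome.
AT3TE52800: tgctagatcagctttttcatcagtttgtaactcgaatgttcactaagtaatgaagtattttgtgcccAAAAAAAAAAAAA
AT2TE29220: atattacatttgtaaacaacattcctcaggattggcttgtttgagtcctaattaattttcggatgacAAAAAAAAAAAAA
AT3TE64975: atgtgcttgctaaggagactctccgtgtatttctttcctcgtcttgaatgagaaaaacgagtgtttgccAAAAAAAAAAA

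Several insertions with large differences between the reciprocal heterozygotes were short. Shown first are a pair with lower 24-nt levels in mat nrpd1+/- than in pat nrpd1+/- endosperm: AT2TE37330 (ATLINE1_6, chr2:8874966-8875218, - strand) and AT2TE10675 (ATLINE2, chr2:2313892-2314135, -). Then come a pair with higher levels: AT2TE42730 (ATLINE1_4, chr2:9983253-9983460, +) and AT2TE33295 (ATLINE1_3A, chr2:8019134-8019310, +). Capitals mark CG dinucleotides, of which these insertions hold 7, 9, 2 and 3 in the order shown.
AT2TE37330: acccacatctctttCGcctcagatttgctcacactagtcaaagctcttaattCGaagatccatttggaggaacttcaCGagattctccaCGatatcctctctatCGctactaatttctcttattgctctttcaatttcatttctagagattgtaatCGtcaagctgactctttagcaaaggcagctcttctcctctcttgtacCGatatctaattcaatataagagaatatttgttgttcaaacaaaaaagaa
AT2TE10675: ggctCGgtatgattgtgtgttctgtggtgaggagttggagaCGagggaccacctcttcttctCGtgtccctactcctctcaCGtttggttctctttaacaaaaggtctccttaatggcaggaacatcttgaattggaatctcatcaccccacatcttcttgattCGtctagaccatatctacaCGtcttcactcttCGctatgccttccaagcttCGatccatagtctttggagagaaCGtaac
AT2TE42730: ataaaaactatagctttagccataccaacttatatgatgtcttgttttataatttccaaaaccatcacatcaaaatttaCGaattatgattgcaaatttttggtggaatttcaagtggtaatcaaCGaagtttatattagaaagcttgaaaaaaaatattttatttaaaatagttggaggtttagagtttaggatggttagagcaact
AT2TE33295: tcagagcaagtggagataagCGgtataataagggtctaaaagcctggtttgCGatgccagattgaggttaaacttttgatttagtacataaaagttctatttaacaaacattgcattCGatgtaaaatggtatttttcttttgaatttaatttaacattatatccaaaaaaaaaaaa
CG density did not separate the groups by eye: the median was 2.71 CG per 100 bp in the 17 insertions lower in mat nrpd1+/-, 2.64 in the 54 that were higher, and 2.69 in the 833 tested and not called.

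The share of TE-derived sRNA reads that came from LINEs was lower when both parents lacked Pol IV. They received 3131, 3351 and 2024 reads of 24 nt in the nrpd1-/- libraries, 313892, 280518 and 224513 in the mat nrpd1+/- libraries, and 377651 and 208219 in the pat nrpd1+/- libraries. As a share of all 24-nt TE reads this was 1.19% ± 0.101 in nrpd1-/- (SD, n = 3), 5.85% ± 0.222 in mat nrpd1+/- (n = 3) and 5.51% ± 0.372 in pat nrpd1+/- endosperm (n = 2). The nrpd1-/- libraries lay apart from all others in each size class, while the reciprocal heterozygotes overlapped at 22 and 24 nt. At 22 nt the share was 1.71% ± 0.243 in nrpd1-/-, 5.91% ± 0.165 in mat and 5.63% ± 0.330 in pat nrpd1+/- endosperm. At 21 nt it was 1.94% ± 0.110, 5.91% ± 0.0522 and 5.69% ± 0.131 in the same order. At 23 nt, nrpd1-/- had 1.89% ± 0.101 and mat nrpd1+/- 5.87% ± 0.321; the 23-nt pat columns were not used because they carry the name of the mat cross. In bulk endosperm, fewer cells with an sRNA and less of it per cell cannot be told apart. Cell type markers and the NRPD1 transcript are not measured by these sRNA tables.

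**Figure D1:**
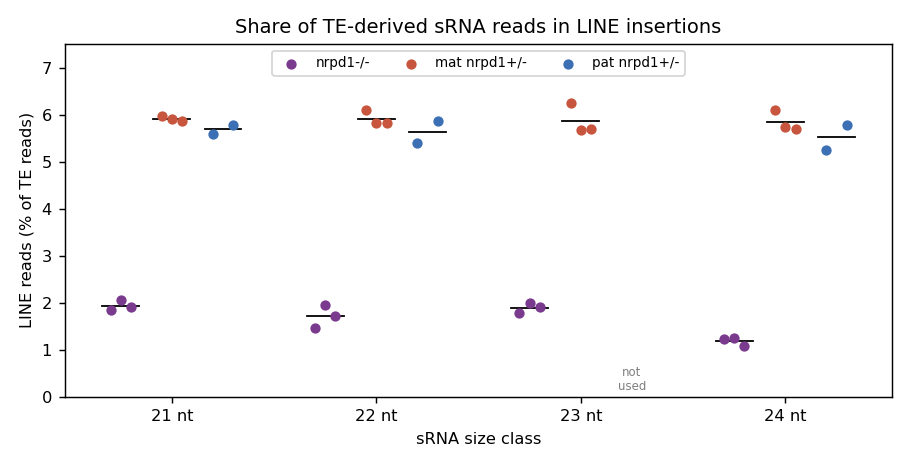
Share of TE reads that fell in LINE insertions, in percent, for each size class; points are libraries and bars are group means. The nrpd1-/- points lie between 1.07% and 2.06%, and all heterozygous points at or above 5.25%; 23-nt pat libraries were not used.

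Levels are given below as CPM, reads per 1000000 reads in genes of the same size class, with TMM scaling. Summed over LINEs, 24-nt CPM was 7532 ± 785 in nrpd1-/- and 223928 ± 18319 in mat nrpd1+/- endosperm, so 3.36% of the mat level was left. Left in the same way were 9.06% for RathE SINEs, which depend on LINE proteins to move, 5.07% for ATCOPIA with META1, 3.42% for ATHILA and 16.6% for all TEs. These sums weigh each entry by its reads. Per tested insertion the median log2 fold change against mat was alike, at -4.98 for LINEs and -5.01 for all TEs. The sums and shares thus do not show a deeper loss at a typical LINE than at a typical TE. The 2 pat nrpd1+/- libraries summed to 158736 (replicate 2) and 224512 (replicate 3), and they also differed in 24-nt TE reads per genic read, at 2.20 and 3.23, against 4.47 to 4.83 in mat and 0.523 to 0.672 in nrpd1-/- libraries. At 22 nt the LINE sum in nrpd1-/- was 2.49% of that in mat nrpd1+/-, and at 23 nt 0.591%. All these percentages rest on scaling to genic reads. With library sizes from mature miRNAs, the median 24-nt log2 fold change of tested LINEs against mat was -7.12, against -4.98 with genic reads. Less was thus left on that scale.

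Without Pol IV from either parent, nearly every LINE that passed the filter on low values had fewer 24-nt sRNAs. In edgeR's quasi-likelihood test, called at an adjusted p of at most 0.05 and a change of 2-fold or more, 753 of 755 tested LINEs were lower and 0 higher in nrpd1-/- than in mat nrpd1+/- endosperm. Over all TEs tested, 98.4% were lower and 0.593% higher, so the LINE count follows the background, and the median log2 fold change was -4.98 for LINEs and -5.01 for all TEs. Against pat nrpd1+/-, 618 of 619 were lower and 0 higher (background 98.5% and 0.561%). No LINE was higher in either comparison at an unadjusted p under 0.05 with 2-fold change, or by DESeq2. These calls rest on scaling to genic reads: scaled by TMM over the TEs themselves, which sets the common loss of TEs to 0, 154 LINEs were lower and 44 higher of 743 against mat, and 66 and 5 of 146 against pat. With library sizes from mature miRNAs, 836 of 836 were lower against mat nrpd1+/-. LINEs passed the filter mainly through the heterozygous libraries, where they were high. A near total of lower calls was thus largely set in advance. The filter left 556 LINEs untested against mat and 692 against pat. Without it, 964 of 1250 LINEs were lower and 1 higher against mat, beside 18015 and 175 of 25541 TEs. Against pat it was 889 and 0 of 1256 LINEs, beside 16703 and 96 of 25578 TEs.

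The highest 24-nt CPM among the LINE entries was that of AT2TE21970, an ATLINE1A copy of 4335 bp on chr2:5423296-5427630 that overlaps AT2G13140. It also overlaps a SIMPLEHAT2 element and the LINE AT2TE21980, and 76.4% of its windows are unique, so part of its reads may belong to other elements. It had 86.8, 85.4 and 72.4 CPM in nrpd1-/-, 4387, 4222 and 3919 in mat nrpd1+/-, and 2870.4 and 4414 in pat nrpd1+/- endosperm. Its level was far below every heterozygous library in all 3 nrpd1-/- libraries (log2 fold change against mat -5.70 ± 0.185 SE, adjusted p = 3.89e-203 by edgeR). AT5TE49820, an ATLINEIII copy of 1591 bp at chr5:13978478-13980068, had 44.6, 78.1 and 59.2 CPM in nrpd1-/-, against 3974, 3335 and 3342 in mat and 2657 and 3633 in pat nrpd1+/-. Its groups of heterozygotes overlapped, as did those of AT2TE21970. AT5TE38545, only 476 bp long (ATLINE1A), had 29.7, 36.6 and 26.3 CPM in nrpd1-/-, 3407, 3143 and 2908 in mat and 1918 and 2591 in pat nrpd1+/- endosperm. AT2TE29220, the ATLINE1A copy whose A run is printed above, had 34.7, 68.3 and 36.2, then 3369, 3112 and 2651, then 1588 and 2505 CPM in the same 3 groups. Only 45% of its 24-base windows are unique, so part of these reads may come from other copies. AT4TE09880, an ATLINE1_6 copy at chr4:2081707-2082877, had 42.1, 48.8 and 46.1 CPM in nrpd1-/-, 2379, 2409.9 and 2326 in mat and 2443 and 2696 in pat nrpd1+/-. None of these insertions was called between mat and pat nrpd1+/- endosperm.

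The 4 LINEs with the highest 24-nt CPM in nrpd1-/- endosperm were long insertions that overlap other TEs, whose reads cannot be told apart from theirs. AT3TE52800, an ATLINE1_6 insertion of 14251 bp that overlaps an ATGP1 element, had 218, 178 and 181 CPM in nrpd1-/-, 1652, 1599 and 1485 in mat and 1216 and 1439 in pat nrpd1+/-. It fell by 3.07 on the log2 scale against mat nrpd1+/- (SE 0.155, edgeR adjusted p = 8.02e-86), a smaller drop than that of AT2TE21970. AT1TE45855, an ATLINE2 insertion of 10912 bp that overlaps an ATGP2N element, had 191, 164 and 214 CPM in nrpd1-/-, 2470.3, 2528 and 2316 in mat and 2197 and 2591 in pat nrpd1+/-. AT3TE57655 (TA11, 10920 bp, overlapping ATHILA2) had 129, 159 and 92.1, then 1812, 1627 and 1517, then 1341 and 1648 CPM. AT4TE10980 (TA11, 7042 bp, overlapping ATGP2N) had 156, 119.6 and 141 CPM in nrpd1-/-, 861, 822 and 767 in mat and 667 and 830.3 in pat nrpd1+/-. In all 4 the nrpd1-/- libraries lay below every heterozygous library. Per kb, the summed level in nrpd1-/- was 4.84 CPM for insertions of 4000 bp or more and 10.6 CPM for those under 500 bp. By length, the nrpd1-/- libraries together held no 24-nt read for 407 of 847 insertions under 500 bp, 32 of 282 from 500 to under 2000 bp, 6 of 95 from 2000 to under 4000 bp, and 0 of 87 of 4000 bp or more.

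The share left in nrpd1-/- endosperm, on the scale of genic reads, differed among well covered LINEs. Over the 440 insertions with a mean of at least 100 CPM in mat nrpd1+/-, the median left was 2.70% of the mat level (interquartile range 1.83% to 3.91%), and 12 kept over 10%. The highest were AT2TE03295 (19.8%), AT4TE19810 (17.7%), AT4TE10980 (17.03%), AT2TE10490 (14.7%) and AT5TE58740 (14.6%), named after their values were seen. AT5TE58740 was itself lower in mat than in pat nrpd1+/-, as given below. Its 14.6% is 50.4 CPM set against that low mat mean of 345 CPM, and is not its share of the higher pat level. By family, 24-nt CPM per kb in mat nrpd1+/- ran from 573 ± 53.2 in ATLINE1A to 71.5 ± 3.88 in ATLINE1_3A, with TSCL at 281 ± 29.4. The level left in nrpd1-/- was 14.1 CPM per kb in ATLINE1A, 12.1 in TSCL and 4.83 in ATLINE1_3A, or 2.45%, 4.29% and 6.74% of mat. ATLINE1A thus held 26.4% of the LINE CPM in nrpd1-/- and 36.2% in mat nrpd1+/- endosperm.

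Some LINEs had no 24-nt read at all in nrpd1-/- endosperm. AT5TE48540 (ATLINE1_5, 1371 bp) had 0 reads in all 3 nrpd1-/- libraries, against 153, 171 and 159 in mat and 204 and 112 in pat nrpd1+/-. With a floor of 3 reads over the nrpd1-/- group it was at least 50.9-fold lower than in mat and at least 37.4-fold lower than in pat nrpd1+/- endosperm. AT5TE58755 (ATLINE2, with 29.6% of its windows unique) was at least 27.3-fold lower against mat and 21.1-fold against pat by the same floor. The bounds were 26.4-fold for AT3TE62715 and 25.9-fold for AT3TE62680 against mat nrpd1+/-, and 25-fold for AT2TE19815 and 18-fold for AT5TE14135 against pat nrpd1+/-. AT2TE19815 spans 23 bp, shorter than a 24-nt read, and abuts the LINE AT2TE19810. AT5TE14135 overlaps a META1 element. Reads counted at these insertions may thus belong to their neighbours. The 397 bp of AT3TE62680 are identical to those of AT3TE62695, 14890 bp away, so reads of these ATLINE1A copies cannot be assigned to one of them.

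Exceptions to the loss of 24-nt sRNAs were few and had few reads. AT2TE37330 had 8, 7 and 0 reads in nrpd1-/- and 24, 23 and 17 in mat nrpd1+/- libraries (log2 fold change -0.43, edgeR adjusted p = 0.32), and AT3TE64975 had 15, 3 and 3 against 26, 26 and 23 (-0.17, adjusted p = 0.66). Both are ATLINE1_6 insertions whose level was already low in mat nrpd1+/- and much higher in pat nrpd1+/- endosperm, as given below. Against pat nrpd1+/-, AT4TE28490 was the LINE not called, with 10, 6 and 1 reads in nrpd1-/- and 87 and 29 in pat nrpd1+/- (-1.14, adjusted p = 0.0538).

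The 22- and 23-nt sRNAs of LINEs fell with the 24-nt class. At 22 nt, 415 of 417 tested LINEs were lower and 0 higher in nrpd1-/- than in mat nrpd1+/- endosperm (background 97.1% lower, 1.43% higher), and 359 of 361 were lower and 0 higher than in pat nrpd1+/- (95.8% and 1.68%). At 23 nt, 650 of 650 were lower and 0 higher than in mat nrpd1+/- (99.6% and 0.176%). At an unadjusted p under 0.05, and by DESeq2 in place of edgeR, 0 were higher in each. Scaled over TEs, the splits were 190 lower and 8 higher, 25 and 3, and 121 and 2 in the same order. Here too LINEs passed the filter mainly through the heterozygous libraries, so near complete lower calls were largely set in advance. AT2TE20395 (TA11, 1550 bp) had no 22-nt read in nrpd1-/- libraries, 169, 158 and 104 in mat and 174 and 139 in pat nrpd1+/-, so it was at least 140-fold lower against mat and 122-fold against pat. AT2TE01315 (ATLINE1A) was likewise at least 97.2-fold and 70.0-fold lower. At 23 nt, AT5TE53615 (ATLINE1_6) had 493, 361 and 295 reads in mat nrpd1+/- and none in nrpd1-/-, at least 241-fold lower, and AT2TE07925 (ATLINE1A) was at least 233-fold lower. The 2 LINEs not called at 22 nt were AT2TE03295, with 4, 27 and 9 reads in nrpd1-/-, 24, 19 and 7 in mat and 14 and 15 in pat nrpd1+/- libraries, and AT2TE83225, with 10, 15 and 10, then 8, 8 and 7, then 8 and 5.

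The 21-nt sRNAs of LINEs were less uniform. With library sizes from TE reads, so that each value is relative to other TEs, 183 of 317 LINEs were lower and 17 higher in nrpd1-/- than in mat nrpd1+/- endosperm (background 54% lower, 15.7% higher). Against pat nrpd1+/-, 73 of 96 were lower and 9 higher (53.6% and 31.1%). With library sizes from 24-nt genic reads the counts were 323 and 4 against mat, and 131 and 2 against pat. Leaving out mat replicate 1, 2 or 3 left 64, 70 or 68 LINEs lower and 9, 9 or 10 higher; leaving out nrpd1-/- replicate 1, 2 or 3 against pat gave 146, 156 or 148 lower, and 19 higher without replicate 1 and 15 without replicate 3. AT3TE67305 (ATLINE1_2) had no 21-nt read in nrpd1-/- and 42, 44 and 33 in mat nrpd1+/- libraries, and was at least 4.58-fold lower on this scale. AT4TE13440 (ATLINE1A, 60 bp) was at least 3.73-fold lower, but it overlaps a VANDAL2 element whose reads may be counted there. Against pat nrpd1+/-, AT4TE09880 had 1, 2 and 1 reads in nrpd1-/- and 489 and 385 in pat (log2 fold change -5.17, edgeR adjusted p = 6.27e-07), and AT2TE20405 (ATLINE1_6) 0, 1 and 0 against 129 and 96 (-5.12).

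A few LINEs held 21-nt reads in nrpd1-/- endosperm as other TEs lost theirs. AT2TE83225 (ATLINE1_4, 235 bp, chr2:18353682-18353916) had 22, 44 and 35 reads of 21 nt in nrpd1-/-, 30, 33 and 26 in mat and 39 and 50 in pat nrpd1+/- libraries. It was higher in nrpd1-/- relative to other TEs, by 3.29 on the log2 scale against mat (edgeR adjusted p = 3.9e-13) and 2.73 against pat (adjusted p = 1.11e-05), where the call ended with 24-nt genic library sizes (1.46, adjusted p = 0.0541). Its reads were mostly 21 nt in every genotype, at 72.1% of 21-, 22- and 24-nt reads in nrpd1-/-, 74.8% in mat and 74.2% in pat nrpd1+/-. AT4TE10980 had 66, 70 and 68 reads of 21 nt in nrpd1-/-, 158, 122 and 103 in mat and 210 and 133 in pat nrpd1+/- libraries, a relative rise of 2.22 against mat (adjusted p = 5.2e-13) beside a fall of its 22-, 23- and 24-nt classes. AT1TE67700 (ATLINEIII) had 8, 11 and 8 reads in nrpd1-/- and 6 and 7 in pat nrpd1+/- (3.57, adjusted p = 2.84e-05). AT3TE86815 (TA11) had 7, 3 and 32 against 8, 10 and 9 in mat nrpd1+/- (3.73, adjusted p = 7.22e-07); nrpd1-/- replicate 3 held most of its reads, and without it the value was 2.23 (adjusted p = 0.00382).

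Over all LINEs, 21-nt reads made up a larger share of reads in nrpd1-/- endosperm, though their number was lower. LINEs had 1442, 2018 and 1614 raw reads of 21 nt in nrpd1-/- libraries. They had 32580, 29502 and 22380 in mat and 36073 and 28573 in pat nrpd1+/- libraries. Of 21-, 22- and 24-nt LINE reads, 33.2% ± 4.95 were 21 nt in nrpd1-/- (SD, n = 3), 8.50% ± 0.162 in mat (n = 3) and 9.61% ± 1.97 in pat nrpd1+/- (n = 2). The 24-nt share was 54.8% ± 6.77, 82.6% ± 0.855 and 83.1% ± 4.09 in the same order. In the other TEs of nrpd1-/- endosperm, 24.2% of reads were 21 nt and 65.8% were 24 nt.

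LINE sRNAs were retained when only one parent lacked Pol IV, and the reciprocal heterozygotes differed at a minority of insertions. At 24 nt, 17 of 904 tested LINEs were lower (background 2.26%) and 54 higher (4.89%) in mat nrpd1+/- than in pat nrpd1+/- endosperm. The median log2 fold change was 0.31 for LINEs and 0.28 for all TEs, and scaling over TEs, which brought the median of all TEs to 0.00, gave 22 lower and 37 higher. RathE SINEs had 19 lower and 30 higher of 252 tested, ATCOPIA with META1 16 and 34 of 867, and ATHILA 13 and 8 of 2203. The count of higher LINEs moved with the library left out: without pat replicate 3 it was 180, without pat replicate 2 32, of which 28 were among the 54, and without mat replicate 1 29. The count of lower LINEs was between 15 and 18, and the 18 without pat replicate 2 included 13 of the 17.

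**Figure D2:**
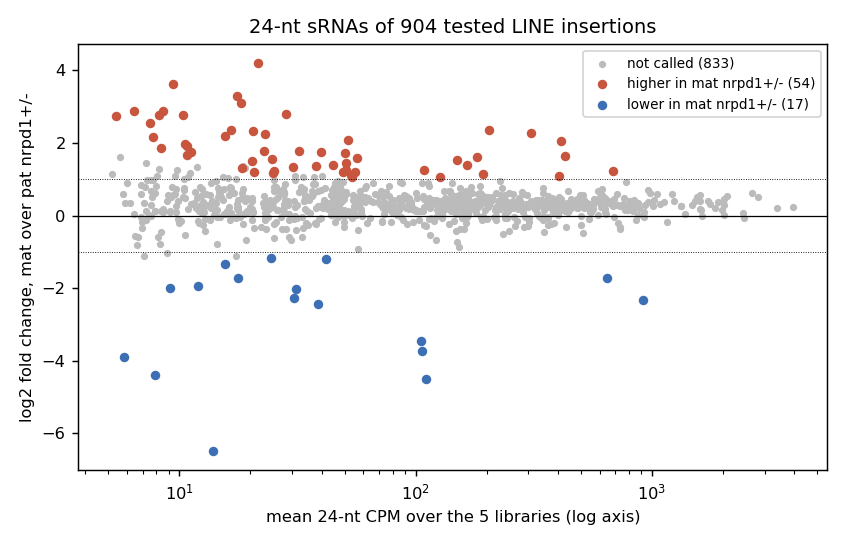
Log2 fold change of 24-nt sRNAs, mat over pat nrpd1+/-, against the mean CPM over the 5 libraries (log axis) for the 904 tested LINEs; dotted lines mark 2-fold change. The 54 higher and 17 lower insertions are coloured, and most of the highly covered LINEs lie between the dotted lines.

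The largest drops in mat nrpd1+/- were at LINEs with hardly any 24-nt reads when the mother lacked Pol IV. AT2TE10680 (ATLINEIII, 4119 bp, chr2:2314136-2318254) and the abutting AT2TE10675 (ATLINE2) lie in pseudogene AT2G05980 and may share reads. AT2TE10680 had 0, 4.88 and 0 CPM in nrpd1-/-, 7.71, 16.0 and 9.14 in mat and 197 and 323 in pat nrpd1+/- endosperm (log2 fold change mat over pat -4.51 ± 0.347 SE, edgeR adjusted p = 5.82e-08). AT2TE10675, printed above, had 0 CPM in every nrpd1-/- library, 0, 0.801 and 0 in mat and 27.3 and 41.0 in pat nrpd1+/- (-6.48 ± 0.678, adjusted p = 3.21e-06). At both, the mat libraries lay far nearer to nrpd1-/- than to pat nrpd1+/-. AT5TE48400 (ATLINE1A, 23 bp) had 0, 0 and 2.74 CPM in mat against 26.9 and 9.70 in pat nrpd1+/- (-4.40, with an adjusted p of 0.19 in DESeq2), and AT1TE41120 (ATLINE2) 0, 0 and 2.74 against 16.8 and 9.70 (-3.90). These last 2 rest on few reads. AT5TE48400 is also shorter than a 24-nt read and abuts a BRODYAGA1A element, to which its reads may belong.

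Of the 89 ATLINE1_6 insertions tested, 4 were lower and 4 higher (4.49% each) in mat than in pat nrpd1+/-. The 4 LINEs of this paragraph were chosen after their values were seen, apart from AT2TE37330 and AT3TE64975, which the naming rule also chose at 22 nt. AT2TE37330 had 19.8, 17.1 and 0 CPM in nrpd1-/-, 18.5, 18.4 and 15.5 in mat and 271 and 210.3 in pat nrpd1+/- (log2 fold change mat over pat -3.74 ± 0.276). AT3TE64975 had 37.2, 7.32 and 9.87 in nrpd1-/-, 20.03, 20.8 and 21.0 in mat and 296 and 166 in pat nrpd1+/- (-3.45 ± 0.299). At both, the mat libraries fell within or close to the range of nrpd1-/-. AT5TE49210, also ATLINE1_6, had 76.8, 41.5 and 0 CPM in nrpd1-/-, but 347, 308 and 338 in mat, against 1215 and 1015 in pat nrpd1+/- (-1.71), so its mat libraries lay above those of nrpd1-/-. AT5TE58740 (ATLINE1A) had 84.3, 53.7 and 13.2 in nrpd1-/-, 440.0, 312 and 283 in mat and 1891 and 1643 in pat nrpd1+/- (-2.32 ± 0.207).

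Of the 54 LINEs higher in mat nrpd1+/-, 31 had a mat mean under 50 CPM. The largest fold changes were at AT3TE34145 (ATLINEIII), with 40.8, 40.8 and 21.0 CPM in mat and 1.26 and 3.23 in pat nrpd1+/- (4.19 ± 0.530, edgeR adjusted p = 3.22e-05), and AT2TE33295, with 19.3, 16.8 and 9.14 against 1.68 and 0 (3.63). AT5TE34070 (ATLINEIII) had 29.3, 31.2 and 21.0 against 2.10 and 4.31 (3.29), and AT2TE42730 had 24.7, 29.6 and 30.2 against 3.36 and 3.23 (3.09). In pat libraries these 4 had between 0 and 8 reads each, so their folds rest on few reads. Among better covered insertions, chosen after their values were seen at 24 nt, AT1TE76520 (ATLINE1_1, 874 bp, chr1:23211864-23212737, 47.9% unique windows) had 14.9, 9.76 and 6.58 CPM in nrpd1-/-, 522, 442 and 376 in mat and 76.5 and 118 in pat nrpd1+/- (2.26 ± 0.265, adjusted p = 1.26e-05). AT1TE73425 (ATLINEIII, 1703 bp, chr1:22231071-22232773) had 9.91, 7.32 and 9.87 in nrpd1-/-, 333, 294 and 271 in mat and 58.0 and 61.5 in pat nrpd1+/- (2.37 ± 0.251). AT2TE84695 (ATLINE1_4), in pseudogene AT2G45230 and abutting AT2TE84700 of 35 bp, had 17.4, 17.1 and 16.4 in nrpd1-/-, 625, 601 and 533 in mat and 123 and 173 in pat nrpd1+/- (2.04). At these 3 the pat level stayed above that of nrpd1-/-. AT1TE76520 and AT1TE73425 lie within 2 Mb of NRPD1, a window treated below.

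**Figure D3:**
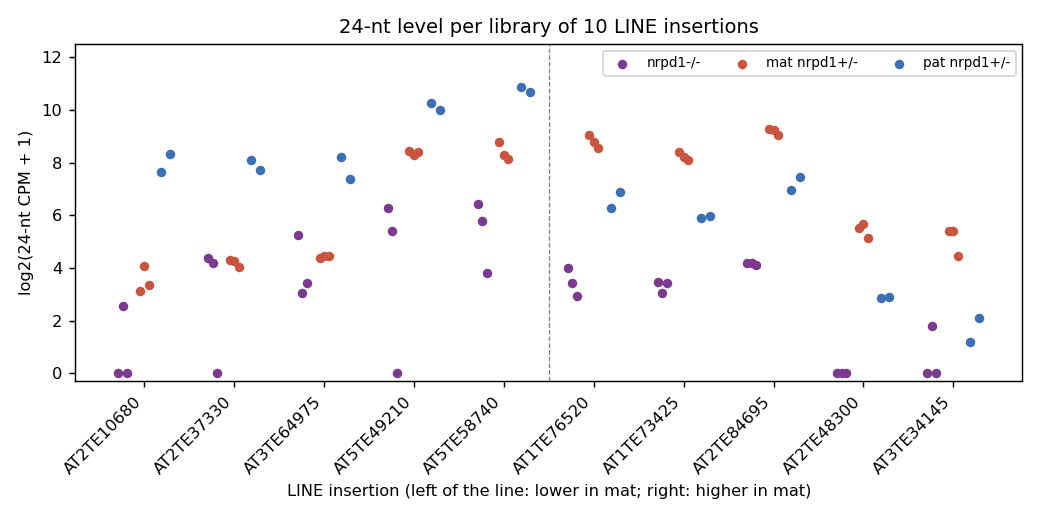
24-nt level as log2(CPM + 1) in each library for 10 LINEs; points are libraries, coloured by genotype. Left of the dashed line mat nrpd1+/- lies below pat nrpd1+/-, as at AT2TE37330 (15.5 to 18.5 against 210.3 and 271 CPM), and right of it above, as at AT1TE76520 (376 to 522 against 76.5 and 118 CPM). AT1TE76520 and AT1TE73425 lie within 2 Mb of NRPD1.

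Calls in both directions varied with length and with gene overlap. By length, 42 of 486 tested insertions under 500 bp were higher (8.64%) and 15 lower (3.09%) in mat nrpd1+/-, against 1 higher and 1 lower of 86 of 4000 bp or more. Outside pseudogenes and protein-coding genes 37 of 369 were higher and 12 lower, against 15 and 5 of 503 over pseudogenes. By family, to give examples, TSCL had 7 of 50 higher (14%), ATLINE1_1 6 of 47 (12.8%) and TA11 2 of 107. The ATLINE1_1 calls include AT1TE70805, AT1TE76520 and AT1TE83175, which lie within 2 Mb of NRPD1, a window treated below. Over all TEs tested, of any length and gene overlap, 4.89% were higher and 2.26% lower. Shares for other TEs of like length or gene overlap were not computed. These counts describe the lists and were not tested against each other.

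At 22 and 21 nt fewer LINEs differed, and several of them were the same insertions. At 22 nt, 6 of 503 LINEs were lower (background 2.21%) and 16 higher (3.9%) in mat than in pat nrpd1+/-, or 12 and 9 when scaled over TEs. At 21 nt, 12 of 508 were lower (3.05%) and 15 higher (3.56%), or 18 and 6 when scaled over TEs. Of the 17 LINEs lower at 24 nt, 7 were also lower at 21 nt (41.2% of the 17, 58.3% of the 12) and 5 at 22 nt (29.4% of the 17, 83.3% of the 6). Of the 54 higher at 24 nt, 7 were also higher at 21 nt (13.0% of the 54, 46.7% of the 15) and 11 at 22 nt (20.4% of the 54, 68.8% of the 16). Without pat replicate 3 the higher counts were 223 at 22 nt and 84 at 21 nt; without mat replicate 1 both were 7, and without pat replicate 2 or mat replicate 2 they were 8 and 9 at 22 nt.

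AT2TE37330 had 2, 1 and 1 reads of 21 nt in nrpd1-/-, 4, 1 and 0 in mat and 451 and 187 in pat nrpd1+/- libraries (mat over pat -7.03 on the log2 scale, edgeR adjusted p = 4.2e-19). At 22 nt it had 4, 3 and 4 in mat against 202 and 59 in pat nrpd1+/- (-4.75). AT3TE64975 had 5, 3 and 1 reads of 22 nt in mat and 246 and 59 in pat nrpd1+/- (-5.23, adjusted p = 2.37e-21), and AT3TE42810 (ATLINE1_6) had no 21-nt read in mat and 28 and 17 in pat nrpd1+/-, at least 16.8-fold lower. All 3 carry the ATLINE1_6 name. On the higher side, AT1TE76520 rose by 2.56 at 21 nt and 2.87 at 22 nt, and AT1TE73425 by 2.40 at 21 nt. AT2TE84700 had 15, 15 and 4 reads of 22 nt in mat and 0 and 0 in pat nrpd1+/-, at least 8.71-fold higher.

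The 21-nt share of the LINEs lower in mat nrpd1+/- differed from insertion to insertion. In pat nrpd1+/- libraries, 21-nt reads made up 24.5% and 28.1% of 21-, 22- and 24-nt reads over the 17 insertions, against 7.61% and 10.6% over the 1240 LINEs called in neither direction or not tested. Of the 21-nt reads behind the pat values, AT5TE49210 gave 2037, AT5TE58740 1640, AT3TE64975 946 and AT2TE37330 638, while others of the 17 had low shares, such as AT2TE10680 (6.31%), AT1TE84355 (4.88%), AT3TE32925 (3.37%) and AT3TE42740 (2.96%). In mat nrpd1+/- the 17 insertions had 9.26%, 9.72% and 11.3% against 8.34% to 8.69% elsewhere. The nrpd1-/- libraries had 23.8%, 28.8% and 61.3% over the 17, from few reads. Of 644 LINEs with at least 100 such reads over the pat libraries, the median 21-nt share was 7.86% (interquartile range 6.61% to 9.49%), and 7 exceeded 25%. These were AT2TE83225 (74.2%), AT3TE64975 (44.8%), AT5TE62945 (37.0%), AT2TE37330 (36.7%), AT5TE48400 (34.3%), AT5TE49210 (30.4%) and AT2TE26275 (26.8%), named after their values were seen; 5 of them are ATLINE1_6 and 4 are among the 17.

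**Figure D4:**
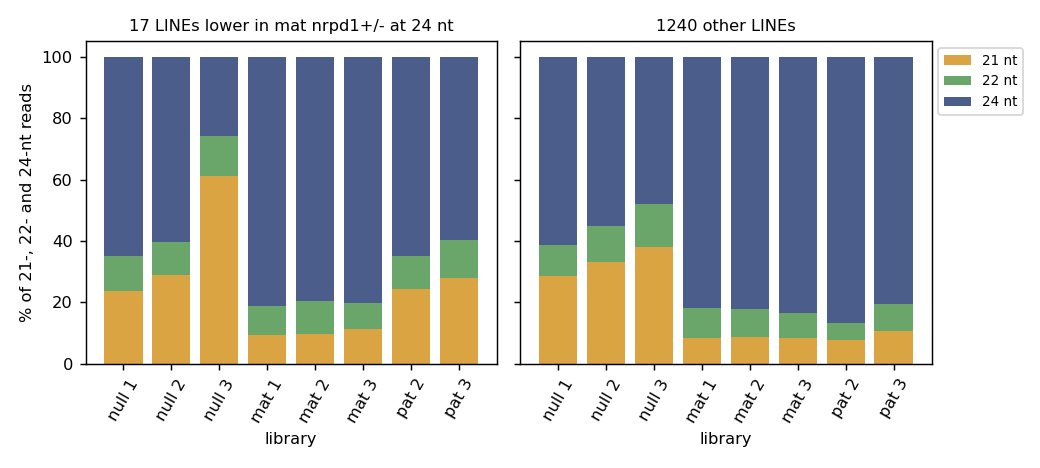
Percent of 21-, 22- and 24-nt reads in each class, by library, for the 17 LINEs lower in mat nrpd1+/- at 24 nt (left) and the 1240 other LINEs (right; all but the 17 and the 54 higher). In the pat libraries 21-nt reads reach 24.5% and 28.1% on the left, where 4 insertions (AT5TE49210, AT5TE58740, AT3TE64975 and AT2TE37330) gave most 21-nt reads, and 7.61% and 10.6% on the right.

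Beside the authors' WT mean of 24-nt normalized counts, heterozygous LINE levels as a whole stood close to WT. With a pseudocount of 1 and a WT mean of at least 5, the median log2 ratio to WT was 0.10 in mat nrpd1+/- (1000 LINEs) and -0.02 in pat nrpd1+/- (1006 LINEs), against 0.08 and 0.00 over all TEs. In nrpd1-/- it was -1.91 over 749 LINEs and -1.94 over all TEs; that table is scaled over TEs, whose sum is 1205220 in nrpd1-/- and 962911 in WT, so the ratio is relative to other TEs. LINEs made up 1.19% of the normalized TE counts in nrpd1-/- and 5.67% in WT. The 2 highest LINEs by WT mean were AT2TE21970 and AT5TE49820. AT2TE21970 had a mean of 5602 in mat nrpd1+/- against the authors' WT mean of 4672 in the same table. The authors' means have no error here, so none of these ratios has a test.

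The called LINEs departed from WT on different sides. The nrpd1-/- ratios are relative to other TEs, as given above, so their size cannot be compared with that of the mat and pat ratios. For the 17 lower insertions the median log2 ratio to WT was -1.14 in nrpd1-/-, -1.89 in mat nrpd1+/-, with 15 at or below -1, and 0.39 in pat nrpd1+/-, with 0 at or below -1. AT2TE37330 had 23.4 in mat against 295 in WT, and 385 in pat against 319 in WT. AT2TE10680 had 14.7 against 341, and 404 against 369, in the same tables, and AT5TE58740 462 against 1654, and 2814 against 1788. For these 3 LINEs the pat level stayed at or above WT. For the 54 higher insertions the median ratio was -1.41 in nrpd1-/-, 0.64 in mat nrpd1+/-, with 18 at or above 1, and -0.69 in pat nrpd1+/-, with 19 at or below -1. AT1TE73425 had 401 in mat against 107 in WT and 94.4 in pat against 116 in WT; AT1TE76520 had 598 against 132 and 151 against 143, and AT2TE84695 786 against 218 and 231 against 235. At these 3 it was mat nrpd1+/- that stood apart from WT. At others, among those with the largest fold changes, it was pat nrpd1+/-. AT3TE34145 had 45.6 in mat against 40.45 in WT and 3.435 in pat against 43.7 in WT. AT2TE33295 had 20.1 against 19.3 and 1.44 against 20.9, and AT5TE34070 36.4 against 35.4 and 4.935 against 38.2. AT2TE42730 had 37.9 against 10.1 and 5.23 against 10.9. Their pat values rest on few reads. AT1TE73425 and AT1TE76520 lie within 2 Mb of NRPD1, where the mutant mother can carry Col-0 sequence. Parental genotype and loss of maternal Pol IV cannot be told apart at them. Col-0 segments elsewhere in the genome were not mapped here, so this limit can also hold for other called LINEs. All ratios of a cross share 1 WT mean, and the mat and pat libraries of the ratios are those that made the calls.

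LINEs higher in mat nrpd1+/- were frequent close to NRPD1 on chromosome 1. The gene, AT1G63020, lies at chr1:23354685-23362589, and the introgressed allele of the mat cross comes from Col-0. Within 2 Mb of it, a distance chosen after values were seen, 7 of 20 tested LINEs were higher (35%) and 1 lower in mat nrpd1+/- at 24 nt. Elsewhere on chromosome 1, 8 of 150 were higher (5.33%), and outside the window in the whole genome 47 of 884 (5.32%). Of all 295 TEs tested in the window, LINEs included, 67 were higher (22.7%) and 25 lower (8.47%). The 7 LINEs were AT1TE70805, AT1TE73260, AT1TE73425, AT1TE76520, AT1TE79995, AT1TE80020 and AT1TE83175. AT1TE70805 (ATLINE1_1, 5859 bp) had 962, 851 and 834 CPM in mat and 323 and 451 in pat nrpd1+/- (1.23 ± 0.215, edgeR adjusted p = 0.000884), and AT1TE83175 (ATLINE1_1, 30.6% unique windows) 692, 556 and 507 against 169 and 219 (1.64 ± 0.233). At 22 nt 5 of 9 tested LINEs of the window were higher, against 35 of all 114 TEs tested there (30.7%), and at 21 nt 5 of 11, against 33 of 102 (32.4%). Parental genotype at linked Col-0 sequence and loss of maternal Pol IV cannot be told apart there.

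**Figure D5:**
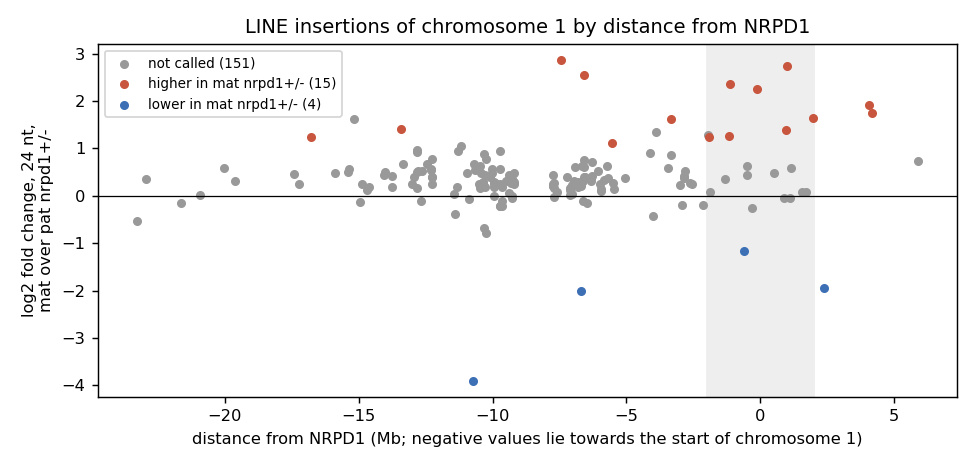
Log2 fold change of 24-nt sRNAs, mat over pat nrpd1+/-, for tested LINEs of chromosome 1 against distance from NRPD1 in Mb; the grey band marks 2 Mb to each side. In the band 7 of 20 LINEs are higher in mat nrpd1+/-, against 8 of 150 elsewhere on the chromosome.

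Most of these LINEs that could be tested were also lower in nrpd1-/- endosperm, as were 98.4% of all TEs tested against mat and 98.5% against pat nrpd1+/-. Of the 54 higher in mat nrpd1+/-, 43 passed the filter on low values against mat and all 43 were lower in nrpd1-/-; 15 passed against pat, and all 15 were lower. Of the 17 lower ones, 12 passed against pat nrpd1+/- and all 12 were lower in nrpd1-/-, and 3 of 5 that passed against mat were lower, the exceptions being AT2TE37330 and AT3TE64975. Members passed mainly through the group where they were high, and these comparisons share their libraries with the calls, so the counts add no independent evidence.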

How the data were processed

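Small RNAs of hand-dissected endosperm were sequenced in 8 libraries. The authors trimmed reads, removed duplicates by random adapter bases, aligned with Bowtie 1.2.2 to Col-0 (TAIR10) and a Ler pseudo-genome, lifted positions to Col-0 and binned reads by size. The deposited count columns are raw reads per Araport11 gene or TE, without strand. The deposited normalized signal columns are DESeq2 counts divided by size factors, and the WT values are the authors' means of such values, used without error. Their fold changes, p-values and window lists were not used, nor were 343 other per-library columns, the 23-nt pat TE columns (named for the mat cross) and the 21-nt nrpd1-/- gene table (it mostly repeats the pat table).

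Raw counts of all 27104 TEs were filtered with filterByExpr and tested with edgeR 4.0.16 (quasi-likelihood, R 4.3.3), with Benjamini-Hochberg adjustment over all TEs tested and calls at an adjusted p of 0.05 and 2-fold. Library sizes came from genic reads of the class with TMM (21-nt nrpd1-/- comparisons from TE reads). DESeq2 1.42.0, other library sizes, no filter, a replicate block and leaving out each library were alternatives. On simulated counts 98% of 200 TEs changed 4-fold were recovered for mat against pat nrpd1+/- (16603 TEs) and 95.5% for nrpd1-/- against mat nrpd1+/- (13883 TEs). In the same order, 10 and 5 unchanged TEs were called. The changed TEs were well covered and all counts had the same fixed spread. Recovery at poorly covered LINEs, or at the spread of the pat libraries, was not measured. The 24-nt TE reads per library ran from 188781 to 7192000, which limits the nrpd1-/- values most. Groups were taken from the sample labels.

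Named LINEs were the 6 highest at 24 nt, the 4 most changed per direction at 24 nt (2 at other sizes) whose libraries did not overlap, the 4 highest in nrpd1-/- and the 2 highest in WT. Members, lists and rules were chosen with earlier results of these data known.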

Additional observations from a re-analysis of the deposited data

How the results depend on the processing

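The main results were counts of called LINEs, shares of reads and medians. Under the alternatives, 217 of these values stayed near the main value, 27 counts were larger and 25 smaller. A further 4 shares or medians moved and 2 medians changed sign. Near means a small fold for counts, and less than the SD between libraries for shares and medians. For named LINEs, 383 values kept their direction and their side of the threshold. The 4 named LINE calls lost were AT2TE84700 and AT1TE76520 at 22 nt with the replicate block, AT5TE48400 at 24 nt with DESeq2 and AT2TE83225 at 21 nt with 24-nt genic library sizes. The causes were not tested. With TMM over all TEs, mat against pat nrpd1+/- gave 6 higher LINEs at 21 nt, and 12 lower and 9 higher at 22 nt. The same scaling in nrpd1-/- against mat gave 190 lower and 8 higher at 22 nt, 121 and 2 at 23 nt and 154 and 44 at 24 nt; against pat it gave 25 and 3 at 22 nt and 66 and 5 at 24 nt. With 24-nt genic library sizes the 21-nt counts were 323 and 4 against mat and 131 and 2 against pat. DESeq2 size factors gave 27 higher at 21 nt against mat, and the DESeq2 test 7 higher at 21 nt between heterozygotes. Without the filter, more LINEs were tested: 37 were higher at 21 nt against mat, 147 lower and 29 higher at 21 nt against pat, 805 lower and 1 higher at 22 nt against mat, 645 lower and 1 higher at 22 nt against pat, and 1 higher at 24 nt against mat.

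Leaving out each library in turn, higher LINEs between heterozygotes ranged from 7 to 84 at 21 nt, 7 to 223 at 22 nt and 29 to 180 at 24 nt. At 21 nt, lower LINEs ranged from 64 to 193 and higher ones from 9 to 23 against mat, and from 62 to 156 and 8 to 19 against pat; higher ones ranged from 0 to 1 at 22 nt against pat. Where a group kept 1 library, it was assumed to vary like the others. The share of TE reads at 21 nt without the top LINE was 5.79% in mat and 5.52% in pat nrpd1+/-. The median log2 ratio of LINEs to WT in nrpd1-/- was -1.45 with a pseudocount of 5 and -1.25 without a WT minimum. In pat nrpd1+/- it was 0.00369 with a WT minimum of 20, and from -0.15 to 0.09 leaving out a library (0.085 without pat replicate 2); leaving out a library was added for these ratios after seeing the data.

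Pairing by replicate number was not seen between nrpd1-/- and mat libraries. Their deviations from group means over 12304 TEs correlated at 0.01, 0.01 and -0.04 for the same number. Libraries of unlike number gave -0.03 to 0.03. For the same number, nrpd1-/- and pat gave 0.07 and 0.14, and mat and pat -0.17 and -0.26. The deviations of the 2 pat libraries mirror each other, so these values cannot show or exclude pairing. With the replicate block, higher LINEs between heterozygotes were 6 at 21 nt, 0 at 22 nt and 24 at 24 nt. Depth limits nrpd1-/- endosperm most, where LINEs had 2024 to 3351 reads of 24 nt per library. The 23-nt share of pat nrpd1+/- could not be given.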
